A study of Mus musculus with 7 samples.

Results

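The CXCL12 axis was followed through 6 of the 38026 genes in the expression table of mouse pancreatic ductal adenocarcinoma (PDA) tumors. The 6 were taken by symbol, each matched 1 row, and all of them passed the filter on low values. They are the chemokine *Cxcl12*, its receptors *Cxcr4* and *Ackr3*, the peptidase *Dpp4*, the cross-linking enzyme *Tgm2* and the partner protein *Hmgb1*. Bulk RNA-seq was performed on 7 subcutaneous (s/c) tumors, 4 labeled sgScramble (replicates 1 to 4) and 3 labeled sgKRT19 (replicates 5, 6 and 8). All 7 tumors grew in untreated C57BL/6 mice from the PDA line 1242, and were taken 2 wk after the cells were inoculated. The line came from a pancreatic tumor of a genetically engineered mouse, and both groups share its alleles. The cells had received SpCas9 with a scrambled guide RNA or with a guide RNA against *Krt19*, which encodes keratin-19, and had been selected with puromycin. Both groups therefore stem from 1 parental line, and only the cancer cells were edited, whereas the host cells of the tumor carried an intact *Krt19*. The mice had been bought at 6 wk of age and housed for 2 wk before use. The labels give neither the guide against *Krt19* nor whether a polyclonal line or a single-cell clone was injected, and nothing links a tumor to a cage or a day. The p-values therefore measure the spread between these tumors only.

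CXCL12 is a small secreted chemokine that stromal cells make. It signals through CXCR4, a G protein-coupled receptor of leukocytes and their progenitors, and is taken up by ACKR3, an atypical receptor that removes the chemokine and signals through arrestins. Heparan sulfate holds CXCL12 on cell surfaces, DPP4 cuts its N terminus and ends its activity on CXCR4, and HMGB1 can bind it and act with it on CXCR4. TGM2 joins glutamines to lysines, and the study examined it as the enzyme that ties CXCL12 to keratin-19 in a coating of cancer cells. The comparison of sgKRT19 with sgScramble tumors asks how the expression of these genes differs when the keratin of that coating has been edited in the cancer cells.

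*Cxcl12* has 3 coding transcripts in GENCODE M21, and they differ in the C-terminal end, where the longer forms carry more of the basic residues that bind heparan sulfate. They share 267 coding bases from the start codon. The last 30 of these are written below in lower case to show how the forms part, the bases that each longer form adds before its stop codon are in capitals, and the alpha form adds 0 bases.
Cxcl12-202 (alpha): caagagtacctggagaaagctttaaacaag
Cxcl12-203 (beta): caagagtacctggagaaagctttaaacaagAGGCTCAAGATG
Cxcl12-201 (gamma): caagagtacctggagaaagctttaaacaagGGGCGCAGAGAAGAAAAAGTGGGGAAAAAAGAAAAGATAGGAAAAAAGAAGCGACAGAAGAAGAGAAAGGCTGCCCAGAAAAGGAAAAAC
The beta form adds 12 coding bases and the gamma form 90. The table gives 1 value for the gene, so the values of *Cxcl12* below are the sum over these forms and do not tell them apart.

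Both receptor genes lie on chromosome 1, and their promoters are shown because they are the members whose expression passed the test. The 250 bases before the RefSeq transcription start (GRCm38.p6) are printed 5′ to 3′ on the strand of the gene. Capitals mark TATAAA (the TATA box), the GC box CCGCCC and the motif GCGTG, searched on both strands, where neighboring matches can overlap. TTCNNNGAA (a STAT half-site pair) and ACGTG were also searched. ACGTG and GCGTG are both forms of the core of a hypoxia response element.
Cxcr4, chr1:128592300-128592549, minus strand: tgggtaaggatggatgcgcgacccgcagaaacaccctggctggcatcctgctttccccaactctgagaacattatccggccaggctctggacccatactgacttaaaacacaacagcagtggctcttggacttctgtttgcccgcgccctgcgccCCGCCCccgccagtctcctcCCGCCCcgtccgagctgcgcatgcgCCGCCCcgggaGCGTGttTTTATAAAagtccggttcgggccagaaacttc
Ackr3, chr1:90203730-90203979, plus strand: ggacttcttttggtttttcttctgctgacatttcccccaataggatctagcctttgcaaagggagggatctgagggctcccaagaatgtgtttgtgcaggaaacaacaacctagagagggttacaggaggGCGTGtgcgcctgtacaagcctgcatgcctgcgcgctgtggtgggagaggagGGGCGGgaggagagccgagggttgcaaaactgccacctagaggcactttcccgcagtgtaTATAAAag
The *Cxcr4* promoter held 3 CCGCCC, 1 GCGTG and 2 TATAAA matches, and the 2 TATAAA matches lie on opposite strands and overlap. The *Ackr3* promoter held 1 match of each of these 3 motifs. Neither held TTCNNNGAA or ACGTG. Of 32851 mouse promoters of the same length, 12.37% held TATAAA, 32.74% held CCGCCC, 28.16% held GCGTG, 16.57% held ACGTG and 7.02% held TTCNNNGAA. These matches describe the letters of the promoters, and no binding was measured.

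The libraries held 40781199 to 44972100 reads, with 3.02% to 4.74% of them in mitochondrial genes, and 28204 to 30143 genes had at least 1 read. Values are normalized read counts (reads over each library's size factor), and ± gives the SD between the tumors within a group. The edited gene was lower in each sgKRT19 tumor, with *Krt19* at 25574, 21179, 27618 and 17841 in sgScramble tumors and at 1606, 1960 and 2470 in sgKRT19 tumors (a log2 difference of −3.52, SE 0.183, limma adjusted p = 1.74e-05). limma called 34.0% of 21322 tested genes at an adjusted p under 0.05, 17.9% higher and 16.0% lower in sgKRT19 tumors, which is the background for the counts below. Summed markers of skeletal muscle were 17728 to 24944 in sgKRT19 tumors, 2028 in sgScramble replicate 3 and 50.4 to 77.9 in the other sgScramble tumors, and 7 of 7 of these markers were called higher. The epithelial markers had a summed level of 119350 to 156960 in sgScramble and 246350 to 260140 in sgKRT19 tumors. Most of this sum came from *Krt8* and *Krt18*. Of the 7 markers, 4 were called higher (*Krt8*, *Krt18*, *Krt20* and *Cdh1*). *Epcam* was level and not called, with means of 910 in sgScramble and 913 in sgKRT19 tumors (log2 fold change 0.06). *Cldn4*, with means of 31.4 and 15.2, and *Cldn7*, with 96.4 and 125, were low and not called (log2 fold changes −1.23 and 0.47). Of the acinar and endocrine pancreas markers, *Amy2a5* and *Gcg* never exceeded 3 reads, and 1 of the list, *Cela1*, was high enough to be tested and was not called.

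Of the 6 members, *Cxcr4* was higher in sgKRT19 tumors, *Ackr3* was lower, and *Cxcl12*, *Dpp4*, *Tgm2* and *Hmgb1* did not pass the test. The share called, 2 of 6 or 33.3%, was close to the 34.0% of all tested genes. The groups did not overlap for the same 2 members. Among all tested genes 41.1% had groups that did not overlap, 21.7% with sgKRT19 higher and 19.3% with sgKRT19 lower. The median log2 fold change of the members was 0.24 and that of all tested genes was 0.01.

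**Figure D1:**
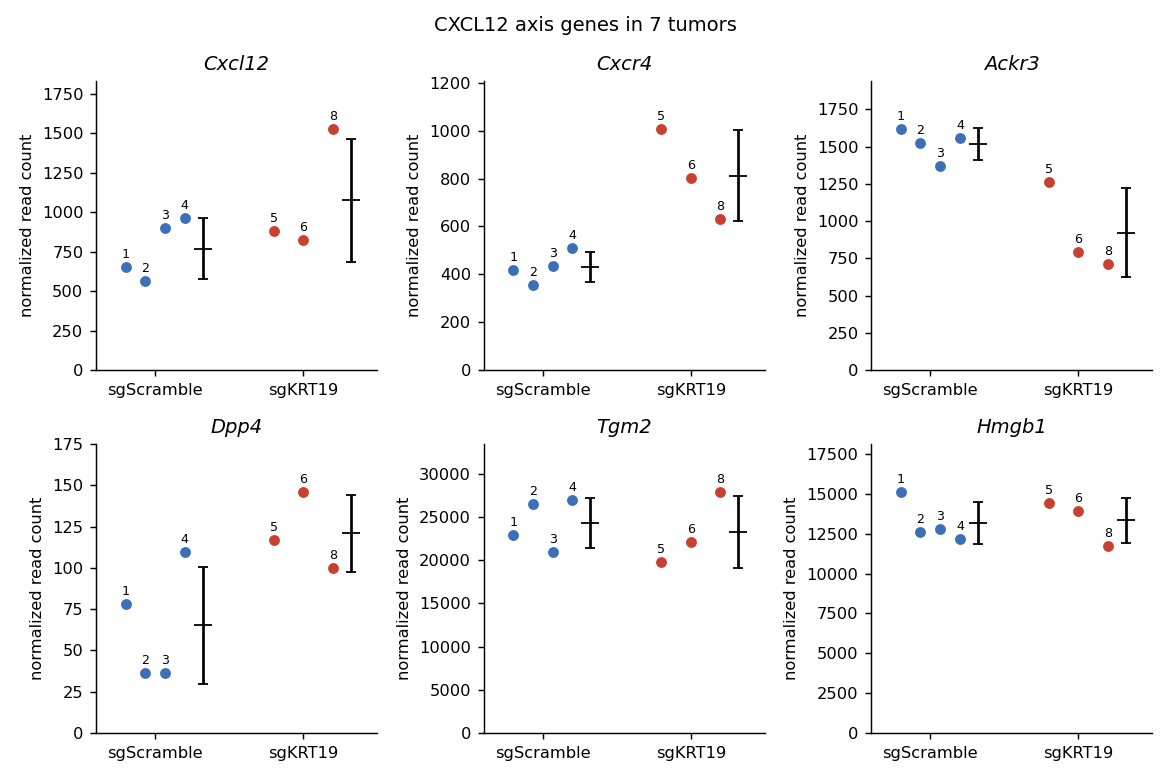
Normalized read counts (y axis, from 0) of the 6 CXCL12 axis genes in the sgScramble tumors (blue, replicates 1 to 4) and the sgKRT19 tumors (red, replicates 5, 6 and 8), with the mean and SD of each group in black. The groups are separate for *Cxcr4*, with 356 to 508 against 629 to 1006, and for *Ackr3*, with 1367 to 1616 against 715 to 1264, and overlap for the other 4 genes.

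The chemokine was examined first. *Cxcl12* (ENSMUSG00000061353.11, chromosome 6, 117168535 to 117181367, plus strand, GRCm38) had normalized read counts of 652, 563, 899 and 965 in the sgScramble tumors and 883, 823 and 1527 in the sgKRT19 tumors. The highest value was that of sgKRT19 replicate 8, and the other sgKRT19 tumors lay within the range of the control group. The means were 770 ± 192 (SD, n = 4) and 1078 ± 390 (SD, n = 3), and the log2 fold change of 0.46 (SE 0.245, 95% CI −0.08 to 1.01) did not pass the test (limma adjusted p = 0.165). Without sgKRT19 replicate 8 the log2 fold change was 0.18. The interval includes no change and also a doubling on the log2 scale, so a difference of that size was not excluded by these 7 tumors.

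In bulk tissue, more cells of a type and more RNA per cell cannot be told apart. The fibroblast markers, genes of the cells that are a main source of CXCL12 in tumors, had a summed level of 113690 to 263270 in sgScramble and 123920 to 144430 in sgKRT19 tumors, and 0 of 9 were called by limma (1 at an unadjusted p under 0.05, 1 by edgeR and 2 by DESeq2). The summed markers of pericytes and smooth muscle were 5301 to 5434 in sgScramble and 12819 to 16743 in sgKRT19 tumors, with 5 of 6 called higher, among them *Des*, which skeletal muscle also expresses. *Des* alone made up 4419 to 6602 of the sgKRT19 sums and 59.3 to 753 of the sgScramble sums, and without it the sums were 4681 to 5336 in sgScramble and 7594 to 10141 in sgKRT19 tumors, a ratio of means of 1.70 in place of 2.65. The endothelial markers, genes of another source of CXCL12, summed to 2995 to 4310 and 4995 to 5584, with 4 of 6 called higher. Within each library, the log2 value of *Cxcl12* minus that of the fibroblast receptor gene *Pdgfra* was −0.12 ± 0.251 in sgScramble and 0.42 ± 0.609 in sgKRT19 tumors (exact permutation p = 0.171, 0.305 after adjustment over 4 such differences). That difference was 1.12 in sgKRT19 replicate 8, and 0.09 and 0.05 in the other sgKRT19 tumors. The part of these cell types in the value of *Cxcl12* was not tested.

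*Cxcr4* (ENSMUSG00000045382.6, chromosome 1, 128588199 to 128592293, minus strand), the signaling receptor of CXCL12, had 420, 356, 435 and 508 normalized reads in sgScramble tumors and 1006, 801 and 629 in sgKRT19 tumors. Each sgKRT19 tumor lay above each control, and sgKRT19 replicate 8, which was highest for the ligand, was lowest in its group for the receptor. The means were 430 ± 62.6 (SD, n = 4) and 812 ± 189 (SD, n = 3), a ratio of 1.89, with a log2 fold change of 0.90 (SE 0.178, 95% CI 0.51 to 1.30, limma adjusted p = 0.00421). The fold change was larger in size than that of 83.4% of all tested genes.

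Leukocyte markers moved with *Cxcr4*. Their summed level was 9965 to 13859 in sgScramble and 17742 to 24294 in sgKRT19 tumors, and 6 of 6 were called higher, *Ptprc* (CD45) among them with means of 965 and 2186. The T cell markers summed to 338 to 791 in sgScramble and 2534 to 4864 in sgKRT19 tumors, with 7 of 7 called higher and sgKRT19 replicate 8 the lowest of its group. The neutrophil markers summed to 377 to 571 and 1081 to 1183, with 5 of 6 called higher. The macrophage and monocyte markers summed to 11491 to 16485 and 14022 to 16698, with 2 of 7 higher (*Ly6c2* and *C1qa*) and 1 lower (*Mrc1*). The B cell markers stayed low at 58.4 to 113 and 60.9 to 87.9, with 2 of 5 high enough to be tested and 0 called by limma, edgeR or DESeq2 (0 also at an unadjusted limma p under 0.05). *Cxcr4* was also set against *Ptprc* within each library. The log2 value of *Cxcr4* minus that of *Ptprc* was −1.16 ± 0.201 in sgScramble and −1.45 ± 0.242 in sgKRT19 tumors (exact permutation p = 0.229, adjusted 0.305), where no p under 0.0571 was possible. Replicates 6 and 8 of the sgKRT19 group, at −1.59 and −1.58, lay below the 4 controls, and replicate 5, at −1.17, lay within their range. The endothelial markers were also higher in sgKRT19 tumors (4 of 6 called, above). Neither the part of leukocyte number in the level of *Cxcr4* nor which cells carried its difference was tested.

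**Figure D2:**
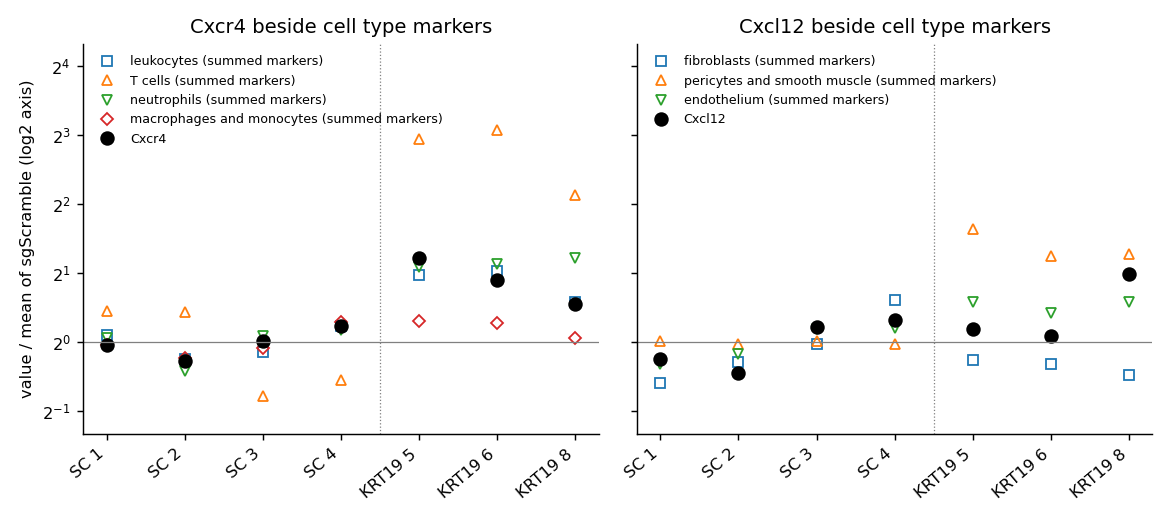
Values in each of the 7 tumors divided by the mean of the sgScramble (SC) tumors, on a log2 axis. Left, *Cxcr4* (black) with summed markers of leukocytes, T cells, neutrophils, and macrophages and monocytes. Right, *Cxcl12* (black) with summed markers of fibroblasts, pericytes and smooth muscle, and endothelium. In the sgKRT19 tumors *Cxcr4* lies near the summed leukocyte markers, with those of T cells above it, and *Cxcl12* stands out in sgKRT19 replicate 8. The sum of the fibroblast markers is lowest of that group in replicate 8, although *Dcn* and *Lum* of that list are highest there.

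*Ackr3* (ENSMUSG00000044337.5, chromosome 1, 90203980 to 90216751, plus strand), the scavenging receptor, moved the other way. It had 1616, 1527, 1367 and 1556 normalized reads in sgScramble tumors, which lay close together, and 1264, 791 and 715 in sgKRT19 tumors, where replicate 5 stood nearer to the controls than replicates 6 and 8. The means were 1517 ± 106 (SD, n = 4) and 923 ± 297 (SD, n = 3), a ratio of 0.609, with a log2 fold change of −0.76 (SE 0.180, 95% CI −1.16 to −0.36, limma adjusted p = 0.0103). The endothelial markers, genes of a cell type known to express *Ackr3*, were higher in sgKRT19 tumors (above). So were 4 of 7 epithelial markers (*Krt8*, *Krt18*, *Krt20* and *Cdh1*, but not *Epcam*), while 0 of 9 fibroblast markers were called by limma. Which cells carried the difference in *Ackr3* was not tested.

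The 2 receptors were then set against each other within a library, as a difference whose change between groups does not depend on gene length. Without division by length, log2 *Ackr3* minus log2 *Cxcr4* was 1.94, 2.10, 1.65 and 1.61 in sgScramble tumors and 0.33, −0.02 and 0.18 in sgKRT19 tumors. The difference does not depend on the scaling of a library, and each sgKRT19 tumor lay below each control. The means were 1.83 ± 0.234 and 0.17 ± 0.174, a change of −1.66 on the log2 scale. The exact permutation p was 0.0571, the smallest that 35 splits of 7 tumors allow in a two-sided test, and 0.229 after adjustment over the 4 differences. Each receptor gene alone had groups that did not overlap, in opposite directions. The separation of the difference, and with it this permutation p, was therefore fixed in advance and adds nothing to the calls of the single genes. The ligand set against its signaling receptor, log2 *Cxcl12* minus log2 *Cxcr4*, was 0.82 ± 0.201 in sgScramble and 0.38 ± 0.789 in sgKRT19 tumors, where replicate 8 stood at 1.28 and replicates 5 and 6 at −0.19 and 0.04 (exact permutation p = 0.343, adjusted 0.343).

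To compare genes, values were divided by length, with each annotated exon base of a gene counted once. Per kilobase of exon, the levels in the sgScramble tumors fell in the order *Tgm2*, *Hmgb1*, *Ackr3*, *Cxcr4*, *Cxcl12* and *Dpp4*. For *Cxcl12* that length was 8176 bases, whereas its coding transcripts have 1878, 3132 and 5627 bases. The place of *Cxcl12* below *Cxcr4* therefore depends on the length used. The means were 5284 normalized reads per kb for *Tgm2*, 2623 for *Hmgb1*, 453 for *Ackr3*, 238 for *Cxcr4*, 94.1 for *Cxcl12* and 10.3 for *Dpp4*. The ranges of neighbors in this order did not overlap in the control group, with *Ackr3* at 408 to 483, *Cxcr4* at 197 to 281 and *Cxcl12* at 68.9 to 118. In the sgKRT19 tumors the means were 5057, 2659, 276, 449, 132 and 19.1 normalized reads per kb for the same genes in the same order, so that *Cxcr4* stood above *Ackr3*. This order also depends on the length used, since without division the sgKRT19 means were 812 for *Cxcr4* and 923 for *Ackr3*. The ranges of these receptors per kb, 348 to 556 and 214 to 377, overlapped in the sgKRT19 tumors, although *Cxcr4* was the higher of the pair within each of the 3.

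**Figure D3:**
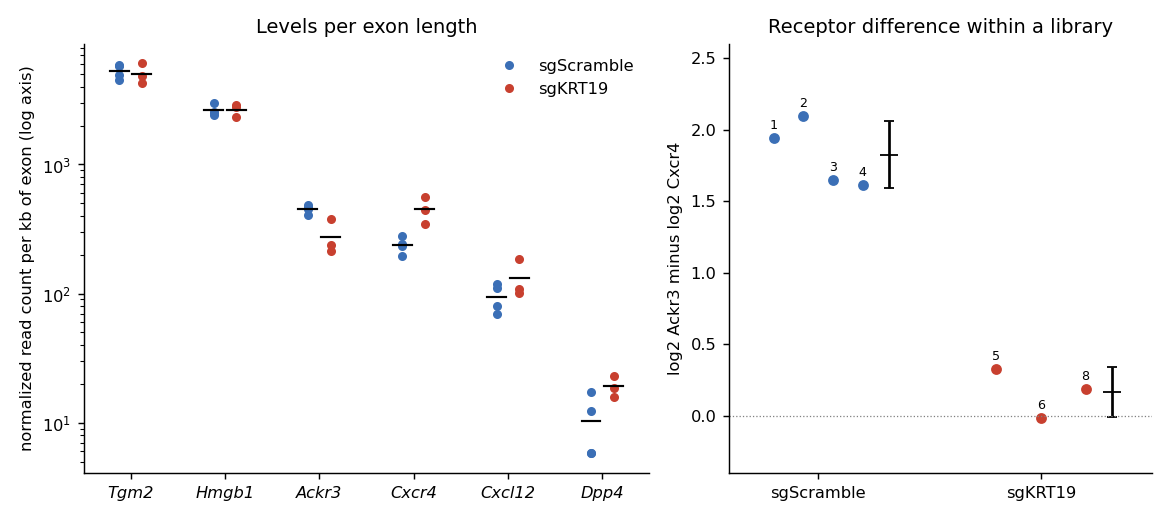
Left, normalized read counts per kb of exon (log axis) of the 6 genes in each sgScramble (blue) and sgKRT19 (red) tumor, with bars at the group means. Right, log2 *Ackr3* minus log2 *Cxcr4* within each tumor (replicate number beside each point), with the mean and SD of the group in black. The order of *Ackr3* and *Cxcr4* per kb differs between the groups and depends on the lengths used. The difference on the right, without division by length, is 1.61 to 2.10 in sgScramble and −0.02 to 0.33 in sgKRT19 tumors.

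*Dpp4* (ENSMUSG00000035000.8, chromosome 2, 62330073 to 62412231, minus strand), the peptidase that clips CXCL12, was the least abundant member. Its normalized read counts were 78.0, 36.6, 36.5 and 109 in sgScramble tumors and 117, 146 and 99.8 in sgKRT19 tumors. The control tumors spread widely, and replicate 4 of that group lay within the sgKRT19 range. The means were 65.1 ± 35.4 (SD, n = 4) and 121 ± 23.4 (SD, n = 3), and the log2 fold change of 1.02 (SE 0.379, 95% CI 0.18 to 1.86) missed the threshold (limma adjusted p = 0.0599). Without sgScramble replicate 4 it was 1.32 with a limma adjusted p of 0.0159, so that 1 library decided the call. Among other peptidases known to cut CXCL12 and relatives of DPP4, 13 of 14 could be tested, 1 rose and 2 fell. *Ctsg*, the neutrophil and mast cell protease cathepsin G, rose from 7.04 ± 3.06 to 40.8 ± 29.2 (a log2 difference of 2.22, SE 0.541, limma adjusted p = 0.0118), although its values were among the lowest tested. *Cpm*, a carboxypeptidase that trims the C terminus of CXCL12, fell from 88.2 ± 25.3 by a ratio of 0.397 (log2 fold change −1.27, limma adjusted p = 0.00732). *Cpn1*, the catalytic subunit of a plasma carboxypeptidase, fell from 445 ± 83.6 to 296 ± 37.7 (log2 fold change −0.58, limma adjusted p = 0.0259). The call of *Cpn1* was lost without sgScramble replicate 3, sgKRT19 replicate 6 or sgKRT19 replicate 8, with log2 fold changes of −0.67 to −0.47 on leaving out single libraries. *Fap*, the fibroblast relative of *Dpp4*, had means of 337 and 397, and the matrix metalloprotease genes *Mmp2* and *Mmp9* had means of 2509 and 1921 and of 715 and 1107, none of them called. *Elane*, the gene of neutrophil elastase, never exceeded 1 read and was not tested.

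*Tgm2* (ENSMUSG00000037820.15, chromosome 2, 158116402 to 158146436, minus strand), the transglutaminase of the coating, was the most abundant member and ranked above nearly all tested genes in mean CPM. It had 22911, 26517, 20951 and 27010 normalized reads in sgScramble tumors and 19847, 22149 and 27909 in sgKRT19 tumors, and the highest and the lowest of the 7 values were both in the sgKRT19 group. The means were 24347 ± 2909 (SD, n = 4) and 23302 ± 4153 (SD, n = 3), with a log2 fold change of −0.07 (SE 0.157, 95% CI −0.42 to 0.28, limma adjusted p = 0.752). The sign turned without sgKRT19 replicate 5, at 0.04. The value of *Tgm2* may hold reads of its neighbors on the opposite strand if the counting did not use strand, which the sources used here do not give, since *Gm20412* covers 13.7% and *Rprd1b* 8.03% of its exon bases. *Gm20412* was at 24.2% to 26.4% of the value of *Tgm2* and *Rprd1b* at 7.64% to 10.6%, and neither was called (log2 fold changes −0.02 and −0.27). Of the other transglutaminase genes, 6 were listed and 3 could be tested. *Tgm4*, known from prostate, was called higher, with 179 ± 30.3 and 291 ± 2.62 (log2 fold change 0.72, limma adjusted p = 0.0087), a call that was lost under library-size scaling alone (adjusted p = 0.0509). *Tgm1* and *F13a1*, the keratinocyte enzyme and the factor XIII A chain, had means of 45.5 and 50.2 and of 547 and 383 and were not called. *Tgm3*, *Tgm5* and *Tgm7* stayed at or under the floor of 3 reads throughout and were not tested.

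*Hmgb1* (ENSMUSG00000066551.12, chromosome 5, 149046702 to 149184489, minus strand), a chromatin protein that acts as an alarmin outside the cell, was also abundant and nearly level. Its normalized read counts were 15133, 12592, 12828 and 12152 in sgScramble tumors and 14415, 13912 and 11748 in sgKRT19 tumors, and the groups overlapped over most of their range. The means were 13176 ± 1334 (SD, n = 4) and 13358 ± 1417 (SD, n = 3), with a log2 fold change of 0.02 (SE 0.128, 95% CI −0.26 to 0.30, limma adjusted p = 0.918), a direction that was −0.20 under library-size scaling alone and changed sign on leaving out any of 4 libraries (sgScramble replicates 2 and 4, sgKRT19 replicates 5 and 6), where it lay between −0.04 and 0.11 over all such fits. Only 2.82% of tested genes had a smaller change in size.

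*Hmgb1* is the member whose value is least certain in what it counts. Stretches of 76 bases, the read length, that occur in *Hmgb1* transcripts were looked up in the transcripts of other genes, and 20.4% of them were found again in 84 other genes, mostly processed pseudogenes. *Gm21596* holds 17.6% of the stretches and had 45.0% to 47.1% of the value of *Hmgb1* in every library, and *Gm15387* holds 11.0% and had 33.0% to 35.8%. Of the 84, 39 had a mean value of at least 100, their log2 fold changes were −0.35 to 0.18 with a median of −0.07, and 0 were called by limma, edgeR or DESeq2 (1 at an unadjusted limma p under 0.05). How reads with several matches were counted is not given in the sources used here. For *Cxcl12*, *Cxcr4* and *Ackr3*, 0% of the stretches occurred in other genes, for *Dpp4* 2.50%, from an antisense transcript with almost no reads, and for *Tgm2* 17.0%, from the neighbors named above.

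**Figure D4:**
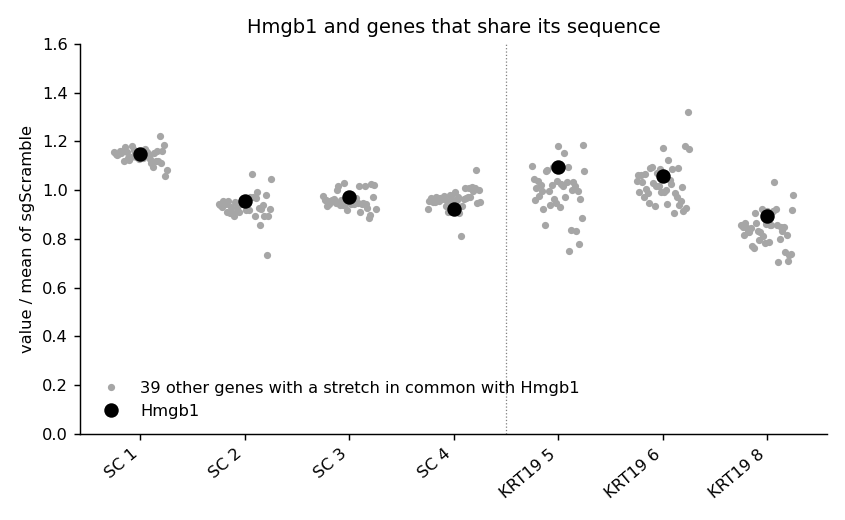
Values of *Hmgb1* (black) and of 39 other genes that have a stretch of its sequence and a mean value of at least 100 (gray), each divided by its own mean over the sgScramble (SC) tumors, in the 7 tumors. The gray points lie on both sides of *Hmgb1* in every tumor, and 0 of the 39 were called by limma, with log2 fold changes of −0.35 to 0.18.

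Other genes around HMGB1 were measured as a list of 9 relatives and receptors, of which 8 could be tested. *Hmgb4* was not among the genes of the expression table. In sgKRT19 tumors limma called 4 of the 8 higher and 0 lower (1 lower at an unadjusted p under 0.05, 0 by edgeR and 1 by DESeq2). *Hmgb2*, a relative of HMGB1 abundant in dividing cells, rose from 7633 ± 1036 to 13666 ± 2383 (a log2 difference of 0.83, SE 0.152, limma adjusted p = 0.00275), and each sgKRT19 tumor lay above each control. *Havcr2* (TIM-3), a receptor of T and myeloid cells, rose from 122 ± 18.0 to 243 ± 15.1 (a ratio of 1.99, limma adjusted p = 0.00199). *Tlr4*, the endotoxin receptor that also responds to HMGB1, rose from 567 ± 82.2 to 1021 ± 79.1 (log2 fold change 0.85, limma adjusted p = 0.00132). *Cd24a*, the gene of a surface glycoprotein that binds HMGB1, rose from 16478 ± 1541 to 26675 ± 4658 (log2 fold change 0.68, limma adjusted p = 0.00757). *Ager*, the receptor RAGE, had means of 139 ± 35.2 and 83.8 ± 26.0 and was not called (log2 fold change −0.73, limma adjusted p = 0.0560). Leukocyte markers were higher in the same tumors, as given with *Cxcr4*, and their part in *Havcr2* and *Tlr4* was not tested.

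Of 4 other ligands of CXCR4 or ACKR3, 1 was called. *Cxcl11*, an interferon-induced chemokine that binds CXCR3 and ACKR3, had 139, 125, 63.0 and 85.3 normalized reads in sgScramble tumors and 393, 458 and 447 in sgKRT19 tumors, with no overlap. The means were 103 ± 35.3 and 433 ± 34.9, a ratio of 4.19 (log2 fold change 2.12, SE 0.258, limma adjusted p = 0.000319), the second largest log2 fold change upward among the listed pathway genes after *Ctsg*. These are RNA levels. Whether the tumors held a working CXCL11 protein was not tested. *Mif*, a cytokine that can bind CXCR4 and CD74, had means of 8564 ± 1370 and 11276 ± 1972 and missed the threshold (log2 fold change 0.40, limma adjusted p = 0.0765). *Cxcl14* had means of 1597 and 1777, and *Adm*, the gene of adrenomedullin, 265 and 232, and neither was called. The other atypical chemokine receptors *Ackr1*, *Ackr2* and *Ackr4* had sgScramble means of 17.8, 17.5 and 124 and sgKRT19 means of 42.1, 18.8 and 115, and 0 of 3 were called by limma, edgeR or DESeq2 (0 also at an unadjusted limma p under 0.05). The SD of *Ackr1* in sgKRT19 tumors was 39.6, close to its mean, because replicate 8 had 86.1 normalized reads and replicate 5 had 9.25. Its log2 fold change of 0.71 was 1.495 without sgKRT19 replicate 5, where it was called (limma adjusted p = 0.0288), and −0.05 without sgKRT19 replicate 8.

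Around CXCR4, 25 genes of signaling and desensitization were tested, of which 9 were called higher, 1 lower and 15 not. The list includes *Cd74*, which is not downstream of CXCR4. *Rac2*, the Rac GTPase of blood cells, rose from 591 ± 37.6 to 1533 ± 340 (a log2 difference of 1.35, SE 0.149, limma adjusted p = 0.000193). *Cd74*, the invariant chain of MHC class II and a receptor of MIF that pairs with CXCR4, rose from 20298 ± 3244 to 40202 ± 1827 (a ratio of 1.98, limma adjusted p = 0.00104). *Grk5*, a kinase that phosphorylates active receptors, had a log2 fold change of 0.87, the exchange factor gene *Vav1* of 0.81 and *Rgs1*, which shortens G protein signals in leukocytes, of 0.77, and the limma adjusted p-values were 0.000956, 0.00277 and 0.00905. The other 4 called higher were *Pik3cd*, *Dock2*, *Rgs16* and *Grk6*, with log2 fold changes of 0.72, 0.72, 0.69 and 0.48. Several of these genes (*Rac2*, *Vav1*, *Rgs1*, *Pik3cd* and *Dock2*) are known mainly from blood cells, and the leukocyte markers above moved with them. The part of leukocyte number in these values was not tested. Genes not called included *Gnai2*, *Gnai3*, *Gnb1*, *Arrb1*, *Arrb2*, *Jak2*, *Grk2* and *Rac1*. Their log2 fold changes lay between −0.16 for *Arrb2* and 0.25 for *Rac1*. *Gnai1*, an inhibitory G protein subunit, fell from 348 ± 37.9 to 122 ± 36.3 (a log2 difference of −1.54, SE 0.203, limma adjusted p = 0.000487), with no overlap between the groups. The call of *Dock2* was lost without sgScramble replicates 2 or 3 or sgKRT19 replicates 5 or 6, where its log2 fold change was 0.49 at the lowest, and the calls of *Dock2* and *Grk6* were lost under library-size scaling alone.

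Of 18 genes of heparan sulfate, the sugar that holds CXCL12 at surfaces, 2 were called higher, 4 lower and 12 not. The proteoglycan genes *Sdc1* and *Sdc2*, which carry the chains, fell by 0.52 and 0.61 on the log2 scale, with means of 21742 ± 1281 and 15479 ± 4091 and of 1355 ± 85.0 and 901 ± 182 (limma adjusted p = 0.0378 and 0.00880). *Hs2st1*, a sulfotransferase that builds the chains, fell by 0.55 from 6224 ± 370 to 4294 ± 869 (limma adjusted p = 0.0124). The endosulfatase genes, whose products remove sulfate from the chains outside the cell, moved in opposite directions. *Sulf1* fell from 1689 ± 376 to 1114 ± 187 (log2 fold change −0.59, limma adjusted p = 0.0269), and *Sulf2* rose from 2220 ± 448 to 4210 ± 1547 (log2 fold change 0.88, limma adjusted p = 0.0182). *Hpse*, the gene of heparanase, which cuts the chains, rose from 460 ± 50.9 to 665 ± 55.0 (log2 fold change 0.53, limma adjusted p = 0.0119), a call that was lost under library-size scaling alone. The call of *Sdc1* was lost on leaving out any 1 library but sgKRT19 replicate 5, with log2 fold changes of −0.72 to −0.35. The call of *Sulf1* was lost without sgScramble replicate 4 or sgKRT19 replicates 6 or 8, that of *Sulf2* without sgScramble replicate 2 or sgKRT19 replicates 6 or 8 and under library-size scaling alone, and that of *Hs2st1* without sgKRT19 replicate 8. On leaving out single libraries *Sulf1* had log2 fold changes of −0.69 to −0.45, *Sulf2* of 0.61 to 1.16 and *Hs2st1* of −0.71 to −0.44. Without the trend in eBayes the calls of *Sdc1*, *Sulf1* and *Dock2* were also lost.

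The keratin list of 5 genes held 3 called higher and 1, the edited *Krt19*, called lower. *Krt8*, the type II keratin that pairs with keratin-19, rose from 55494 ± 8276 to 103416 ± 8784 (a log2 difference of 0.91, SE 0.174, limma adjusted p = 0.00359). *Krt18*, the type I partner of keratin-8, rose from 49260 ± 8872 to 95589 ± 2449 (log2 fold change 0.97, limma adjusted p = 0.00280), and *Krt20* from 7260 ± 1008 to 13121 ± 1105 (log2 fold change 0.86, limma adjusted p = 0.00133). *Krt7* had means of 6848 ± 3473 and 3473 ± 2006 and was not called (limma adjusted p = 0.115). These keratins mark the cancer cells of the tumor, and in bulk RNA the share of cancer cells and their RNA per cell enter together.

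**Figure D5:**
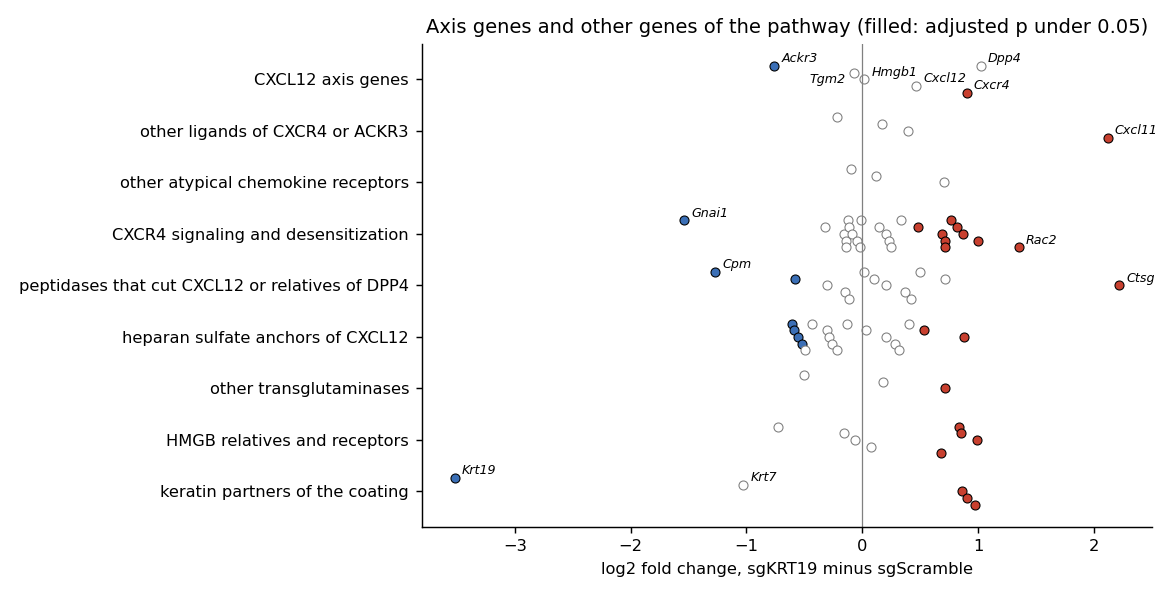
Log2 fold changes (x axis, sgKRT19 minus sgScramble) of the 6 CXCL12 axis genes and of 79 other tested genes in 8 lists, 1 point per gene. Filled points have a limma adjusted p under 0.05 (red higher, blue lower) and open points do not, and names are given for the 6 genes and for any gene with a change of at least 1 in size. Of the 79, 21 were higher, 8 lower and 50 not called.

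Over all lists, 84 genes were written down and 79 could be tested, of which 21 were called higher and 8 lower in sgKRT19 tumors. The share called was 36.7%, against 34.0% of all tested genes, and the median log2 fold change was 0.12, against 0.01. The 29 called genes had the same direction in every one of the alternative settings that gave them a value, and 20 of them were called in every such setting. Under library-size scaling alone, which moved the median of all tested genes to −0.21, 16 of the 21 higher and 8 of the 8 lower genes were still called, and 18 listed genes in all were then called lower. Among all tested genes 27.5% of the calls were then higher, against 52.8% with the size factors of the authors.

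The genes whose profile over the 7 tumors was most like that of each member were found by the root-mean-square (RMS) difference of mean-centered log2 values, among 13662 named genes with a mean of at least 1 CPM. For *Cxcr4* they were *Ebi3*, *H2-DMb2* and *Cd300c2*, with RMS differences of 0.108, 0.125 and 0.128. For *Ackr3* they were *Galc*, *Ccdc30* and *Gpx8*, at 0.110, 0.115 and 0.116. For *Cxcl12* they were *Gzmc*, *Rcsd1* and *Pik3r6*, at 0.145, 0.171 and 0.173, and for *Dpp4*, with its low counts, *Ptafr*, *P2ry14* and *Rnase6*, at 0.270, 0.300 and 0.321. *Gzmc* had 798, 647, 1262 and 1117 normalized reads in the sgScramble tumors and 979, 1002 and 1500 in the sgKRT19 tumors, so it shared with *Cxcl12* the high value of sgKRT19 replicate 8. The most even members had the closest neighbors, *Zc3h12a*, *Ppp1r12a* and *Pkd2l2* for *Tgm2* (0.0402, 0.0494 and 0.0544) and *Mapk8*, *Eif2a* and *Sypl* for *Hmgb1* (0.0307, 0.0373 and 0.0427). With 7 tumors such likeness is a description of these libraries.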

How the data were processed

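RNA from 7 s/c tumors had been sequenced as single reads of 76 bp with 12 cycles of PCR. The labels give the molecule as polyA RNA, whereas the methods of the study name a stranded TruSeq kit for total RNA. The aligner and the counting program are not given in the sources used here, and the submitters' processing notes name mm10 as the build. The deposited values are a signal, reads per gene that the authors had divided by a size factor per library, so that 1 read was worth 0.913 to 1.16. Dividing by that worth gave whole reads in 100% of cases in every library (within 0.02 of a whole number). Replicates of a group differed by more than sampling noise (chi-square of 17.2 to 74.2 per degree of freedom), and each entered as 1 sample. A count of 3 reads was taken as the floor. The reads carry no molecular identifiers, so it covers counting error only.

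Groups were compared with limma 3.58.1 in R 4.3.3 on log2(value + 1) over the genes that reached a value of 10 in 3 or more libraries, with a trended eBayes and Benjamini-Hochberg adjustment over all 21322 genes at a threshold of 0.05. Fold changes are on this scale, which understates changes of low genes. edgeR 4.0.16 (quasi-likelihood) and DESeq2 1.42.0 on the recovered reads were alternatives, and the fitting code was tested on simulated data. Within-library differences were tested with exact two-sided permutation tests over the 35 splits. Python 3.11.15 was used for the rest. GENCODE M21 (GRCm38), in which 97.55% of the gene identifiers occur with the same version, gave positions, exons and transcripts, and RefSeq (GRCm38.p6) the promoters.

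The 6 members and all lists were chosen with earlier results of these data known, so no list stands as independent evidence. Named genes were the 6 members, up to 5 called genes per pathway list and direction, listed genes below the filter, and the 3 genes most like each member. Other genes of the lists, given with their values, were chosen after the values were seen. Sequencing dates and runs are not in the labels, and any batch in step with the groups cannot be told apart from them.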

Additional observations from a re-analysis of the deposited data

Results flagged for a closer look

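Among 23 quantities searched for a control tumor apart from the other 3, where chance gives about 1 in 20, 3 were found by Dixon's ratio, the gap to the nearest tumor over the range above its 95% critical value. Summed skeletal muscle markers were 2028 in sgScramble replicate 3 and 50.4 to 77.9 in the other sgScramble tumors (ratio 0.986). Summed B cell markers were 113 in sgScramble replicate 2 and 58.4 to 64.1 in the others (ratio 0.896). Log2 *Cxcr4* minus log2 *Ptprc* was −0.86 in sgScramble replicate 3 and −1.29 to −1.23 in the others (ratio 0.861). Without sgScramble replicate 3, *Cxcr4* was still called higher and *Ackr3* lower.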

How the results depend on the processing

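No paired analysis was possible because the groups share no replicate number. Under 15 alternatives *Cxcr4* was called higher (log2 fold changes 0.69 to 1.07) and *Ackr3* lower (−1.01 to −0.60) in each, and *Cxcl12* was called in none (0.18 to 0.63). *Dpp4* passed the test only without sgScramble replicate 4, which made 2 members called higher in place of 1, and leaving out single libraries gave 0.80 to 1.32. *Tgm2* and *Hmgb1* were called in no alternative, and leaving out single libraries gave −0.21 to 0.0381 (the latter without sgKRT19 replicate 5) and −0.0383 (again without sgKRT19 replicate 5) to 0.11. Library-size scaling alone gave −0.20 for *Hmgb1* and 18 other pathway genes called lower in place of 8, and leaving out single libraries gave 5 to 9, with 5 without sgKRT19 replicates 6 or 8. Single libraries moved the count of all genes called from 7240 to 4861 at the lowest (without sgScramble replicate 2), edgeR called 7173 and DESeq2 7973. With 7 tumors no permutation p under 0.05 was possible. The cause of these shifts was not tested.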
